A study of Mus musculus with 3 samples.

Results

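The genes described here encode the T cell receptor, and they were chosen by name, as every row of the count table that starts with Trav, Traj, Trac, Trbv, Trbd, Trbj, Trbc, Trdv, Trdc, Trgv, Trgc or Tcrg-. The choice took 112 of 14811 genes. These were 70 Trav and 3 Traj segments and Trac for the alpha chain, 21 Trbv segments with Trbc1 and Trbc2 for the beta chain, 4 Trdv segments and Trdc for the delta chain, and 7 V and 3 C genes of the gamma chain, 1 of the V genes being listed as Trgv2 and the others as Tcrg-V or Tcrg-C rows. By RefSeq's annotation of GRCm38.p6, which matched all 112 names, the beta genes lie on chromosome 6 between 40891296 and 41558371. The alpha and delta genes share a locus on chromosome 14, with Trav from 52427967 to 53876752, Trdv from 53881612 to 54149201, Trdc from 54142851 to 54146108 and Trac from 54220521 to 54224198. The gamma genes lie on chromosome 13 between 19178042 and 19352343.

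A T cell receptor is a heterodimer, of an alpha with a beta chain in most T cells and of a gamma with a delta chain in a small lineage. In the thymus each developing T cell joins a variable (V) to a joining (J) segment, with a diversity segment between them in beta and delta chains, and splices the product to a constant (C) gene. The V segment is then kept by all descendants of that cell, so that T cells of a clone share it. Beta rearrangement is for the most part kept to a single allele, whereas alpha rearrangement can proceed on both. In tumors, V segment usage is read as a sign of which T cells have expanded, and the co-receptors CD8 and CD4 go with receptors that see peptides on MHC class I and class II molecules.

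The cells were T cells sorted from B16F10 tumors, grown from a transplantable mouse melanoma line under the skin of mice, with 1 library made from the tumors of 10 pooled mice. On day 1 after tumor implantation the mice had received purified CD45.1 CD4 T cells or CD45.2 CD8 T cells by vein, tumors were resected on day 11, and the labels give the treatment as untreated and the repertoire as open, that is, without naming a fixed receptor. CD45.1 cells with CD4 alone or with both co-receptors, and CD45.2 cells with CD8 alone or with both, were sorted separately, given a hashtag each and pooled in similar numbers. The labels give neither the host's strain and CD45 allele nor which hashtag number marks which sorted population, and the hashtag and receptor-enriched libraries were not analysed here.

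The authors gave each cell a hashtag number from 1 to 4, a Cd8 or Cd4 identity, and a class. The 4 groups compared here are the 313 Tdp cells of Cd8 identity, the 2681 cells of the Cd8 class, the 93 Tdp cells of Cd4 identity and the 2477 cells of the Cd4 class. Every Tdp cell holds a UMI (unique molecular identifier, standing for 1 captured RNA molecule) of both Cd4 and Cd8a, so deeper cells may enter the Tdp class more easily. The median total per cell was 4981, 4159, 4668 and 3478 UMIs in the 4 groups in that order. All groups come from 1 library of 1 pool, so no test between them was possible. The hashtag numbers are parts of that pool and serve only to show whether a value holds within each. Intervals given below are exact 95% intervals, binomial for shares of cells and Poisson for summed UMIs, and cover counting error only. UMIs of a V gene lie together in the cells that use it, so an interval on summed UMIs is too narrow.

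The genes of the CD3 complex, which marks T cells, summed to 4067 CPM (UMIs scaled to a total of 1000000 UMIs over all genes other than receptor and immunoglobulin genes) in Cd8-identity Tdp cells, 3621 in Cd8 class cells, 3889 in Cd4-identity Tdp cells and 3694 in the Cd4 class. Macrophage and monocyte markers summed to 367.4, 1052, 52.4 and 485.4 CPM in the same order. A set of 87 cells had at least 5 UMIs of that list and no UMI of Cd3d, Cd3e or Cd3g, and 84 of them were of the Cd8 class and 3 of the Cd4 class. These myeloid-list cells served as a guide to free receptor RNA, which they may understate, because the rule leaves out cells with free CD3 RNA. They held 18 receptor UMIs in all, 25.8 CPM, and 8.05% of them had a Trbv UMI and 4.60% a Trav UMI at a median depth of 6924 UMIs.

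Receptor transcripts made up 0.301% of all UMIs, 80543 of 26763131. The beta V segments gave 46539 of these, the alpha V segments 16220, Trbc1 and Trbc2 together 8818, Trac 7464, the gamma V segments 915 and the gamma C genes 357, the delta V segments 138 and Trdc 83. The 3 Traj rows held 9 UMIs together. At least 20 UMIs were present for 96 of the 112 genes, at least 100 for 68 and at least 1000 for 18. Trac, the only C gene of the alpha chain, was the most abundant single gene, with 7464 UMIs in 3332 cells, followed by the segments Trbv12-1 with 7267 UMIs in 967 cells and Trbv29 with 6449 UMIs in 628 cells. The C genes were thus spread thinly over many cells and the V segments held many UMIs in few cells.

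Beta and alpha chain transcripts differed in opposite directions between the Cd8 and Cd4 classes. The Cd8 class held more Trbv and Trbc and less Trav and Trac than the Cd4 class, while the sum over all receptor genes was nearly equal. Both Tdp groups had a higher receptor CPM than the single class of their identity.

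All receptor genes together reached 3477 CPM in Cd8-identity Tdp cells, 2986 in Cd8 class cells, 3538 in Cd4-identity Tdp cells and 2953 in the Cd4 class. The median cell held 18, 13, 19 and 10 receptor UMIs in these groups. The Cd8 class and the Cd4 class thus had a ratio of 1.01 (95% interval 0.997 to 1.03), and the Tdp groups 0.983 (0.935 to 1.03). Cd8-identity Tdp cells stood at 1.16 times the Cd8 class (1.13 to 1.20), with 1.23, 1.22, 1.11 and 1.16 in hashtag numbers 1 to 4. Cd4-identity Tdp cells stood at 1.20 times the Cd4 class (1.15 to 1.25). The Cd8 class also held most of the cells with macrophage markers, and without cells of other types the ratio of Cd8-identity Tdp to the Cd8 class was 1.08.

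Trav segments summed to 548.7 CPM in Cd8-identity Tdp cells, 505.8 in Cd8 class cells, 767.0 in Cd4-identity Tdp cells and 739.1 in the Cd4 class. Trac had 270.1, 213.4, 347.7 and 361.8 CPM in the same order. The alpha chain was lower in both Cd8-identity groups. The Cd8 class had 0.684 times the Trav level of the Cd4 class, and 0.657, 0.613, 0.738 and 0.703 times within numbers 1 to 4. For Trac the ratio was 0.590, and 0.578, 0.552, 0.648 and 0.575 within the numbers. Every number thus gave a lower alpha level in the Cd8 class.

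Trbv segments summed to 2109.8 CPM in Cd8-identity Tdp cells, 1858 in Cd8 class cells, 1974 in Cd4-identity Tdp cells and 1525 in the Cd4 class. Trbc1 and Trbc2 together had 470.6, 346.1, 391.4 and 283.0 CPM in the same order. Here the Cd8 class was higher than the Cd4 class in all 4 numbers, with a ratio of 1.22 for Trbv (1.04, 1.22, 1.24 and 1.13 by number) and also 1.22 for Trbc (1.08, 1.13, 1.18 and 1.21 by number). Between the Tdp groups Trbv was nearly equal, with a ratio of 1.07 (1.03, 1.02 and 0.977 in numbers 1, 2 and 4). The Trbc ratio there was 1.20 (1.20, 1.23 and 1.25 in the same numbers). There were 3.67 Trbv UMIs for each Trav UMI in the Cd8 class and 2.06 in the Cd4 class, with 3.84 in Cd8-identity Tdp and 2.57 in Cd4-identity Tdp cells. Trbc UMIs for each Trac UMI were 1.74 in Cd8-identity Tdp cells, 1.62 in Cd8 class cells, 1.13 in Cd4-identity Tdp cells and 0.782 in Cd4 class cells. Within the Cd4 class, cells with a UMI of Foxp3, the regulatory T cell factor, had 1.5 Trbv UMIs for each Trav UMI, against 2.25 in cells without one.

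**Figure D1:**
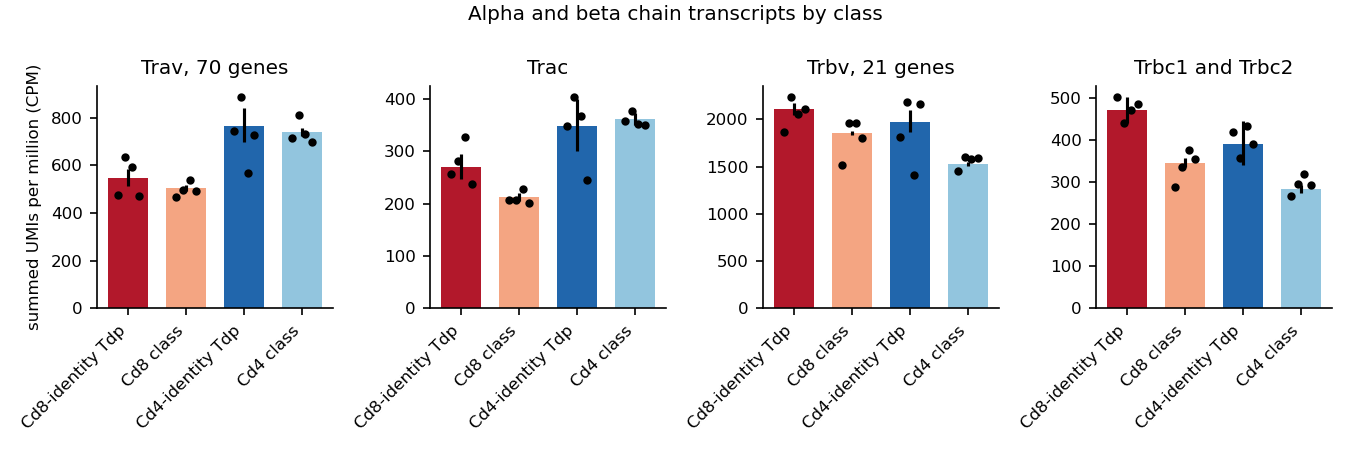
Summed level (y axis, CPM) of the alpha V segments, Trac, the beta V segments and the Trbc genes in the 4 classes, with exact 95% Poisson intervals for counting error as lines and the 4 hashtag numbers as points. Trav and Trac bars are lower in both Cd8-identity groups (548.7 and 505.8 CPM for Trav) than in both Cd4-identity groups (767.0 and 739.1 CPM), and Trbv bars are lowest in the Cd4 class.

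The classes use V segments in different shares, so the alpha and beta levels were also compared within single segments, over the cells called for each. A cell was called for the V segment with most UMIs of its family when that segment had at least 2 UMIs and at least 2 times the UMIs of the next. Of 14 Trbv segments with at least 20 called cells in both single classes, 10 had more UMIs per 10000 UMIs of the cell in the Cd8 class, with a median ratio of 1.05 and a range of 0.927 to 1.79. Of 8 such Trav segments 1 did, with a median ratio of 0.823 and a range of 0.688 to 1.03. The most used beta segment of the Cd8 class, Trbv12-1, had the largest ratio, with 8.74 ± 4.77 UMIs per called cell in 554 Cd8 class cells and 4.63 ± 5.20 in 27 Cd4 class cells (SD over cells). Trav9-1 had the smallest among the alpha segments, with 4.18 ± 2.77 UMIs in 33 Cd8 class cells and 3.61 ± 1.78 in 31 Cd4 class cells, which is 6.26 and 9.10 per 10000 UMIs. For both segments the SDs exceed the difference in mean UMIs per called cell between the classes. No spread was taken for the values per 10000 UMIs, and an SD over cells does not measure the error of a class mean.

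Trbc2 differed more than Trbc1 between the Cd8-identity groups. The segments of the beta chain can be spliced to either C gene, and Trbc1 and Trbc2 are nearly identical, so reads may have been split between them. Trbc2 had 389.7 CPM in Cd8-identity Tdp cells, 238.6 in Cd8 class cells, 267.3 in Cd4-identity Tdp cells and 210.4 in the Cd4 class. Trbc1 had 80.8, 107.5, 124.1 and 72.6 CPM. Cd8-identity Tdp cells thus had 1.63 times the Trbc2 level of the Cd8 class (2.22, 1.53, 1.42 and 1.63 by number) and 0.752 times its Trbc1 level (0.750, 0.850, 0.916 and 0.650 by number). In Cd4-identity Tdp cells both were higher than in the Cd4 class, Trbc1 by 1.71 times and Trbc2 by 1.27 times. Among cells with at least 2 Trbc UMIs, both C genes were seen in 31.0% (63 of 203) of Cd8-identity Tdp cells, 41.8% (470 of 1124) of Cd8 class cells, 58.8% (30 of 51) of Cd4-identity Tdp cells and 44.0% (338 of 769) of Cd4 class cells.

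The levels of single receptor genes were compared by a rule of size. A gene was measured where both groups together held 20 UMIs or more of it, and it was counted as higher or lower past a CPM ratio of 1.5. For Cd8-identity Tdp over the Cd8 class 79 receptor genes were measured, with 12 higher and 49 lower, where 5.12% and 11.9% of all measured genes were higher and lower. For Cd4-identity Tdp over the Cd4 class 15 of 86 were higher and 43 lower, against 8.99% and 17.7% of all genes. Between Cd8-identity and Cd4-identity Tdp cells 10 of 36 were higher and 16 lower, against 13.2% and 8.48%. For the Cd8 class over the Cd4 class 26 of 95 were higher and 48 lower, against 10.2% and 8.42%. Because the single classes hold many more UMIs, a segment can pass the filter through them alone, as did Trav14-3 with 0 UMIs in Cd8-identity Tdp and 60 in Cd8 class cells. Of the lower genes, 20 of 49 had at most 3 UMIs in Cd8-identity Tdp cells and 30 of 43 at most 3 UMIs in Cd4-identity Tdp cells, so the counts of lower genes in Tdp cells are given as a description only. Between the single classes this held for 1 of 48. V segments are used by few cells each, so the reads behind a segment's ratio can come from a handful of cells, and for Trbv15 10 cells held 18.7% of its UMIs.

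Cd8 and Cd4 cells used nearly the same beta V segments but in different shares, and the Cd8 class leaned on a few. A Trbv segment was called in 87.9% of Cd8-identity Tdp cells (275 of 313), 78.8% of the Cd8 class (2112 of 2681), 71.0% of Cd4-identity Tdp cells (66 of 93) and 71.5% of the Cd4 class (1772 of 2477), and in 1 of the 87 myeloid-list cells. Trbv12-1 led in the Cd8 class and Trbv13-2 in the Cd4 class. The effective number of Trbv segments, the inverse of the summed squared shares, was 2.60 in Cd8-identity Tdp cells, 7.83 in Cd8 class cells, 7.51 in Cd4-identity Tdp cells and 13.3 in the Cd4 class. By number it was between 1.86 and 3.85 in Cd8-identity Tdp cells and between 4.83 and 9.59 in the Cd8 class, and between 12.2 and 14.8 in the Cd4 class, so these 3 ranges did not overlap. The Tdp values by number rest on fewer called cells, and an effective number is bounded by the cells it is taken over.

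Between the single classes 20 Trbv segments had at least 20 called cells. The share of called cells was at least 1.5 times higher in the Cd8 class for 4 (20%) and lower for 12 (60%). Shares of a group add up to the whole, so a large share of any segment lowers the others, here and in the comparisons that follow. Trbv12-1 was called in 26.2% of Cd8 class cells (554 cells, 95% interval 24.4% to 28.2%) and in 1.52% of Cd4 class cells (27 cells, 1.01% to 2.21%), a ratio of 17.2. By number its share was 22.7%, 23.3%, 20.8% and 41.0% in the Cd8 class and 0.496%, 1.29%, 5.30% and 2.95% in the Cd4 class. The lowest number of the Cd8 class was thus well above the highest of the Cd4 class. The other segments more used by the Cd8 class were Trbv12-2 (7.58% and 1.69% of Cd8 and Cd4 class cells), Trbv29 (14.1% and 5.64%) and Trbv13-1 (11.2% and 7.22%), each higher in all 4 numbers. Trbv12-1 and Trbv12-2 are close copies and reads may have been shared between them.

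The segments more used by the Cd4 class took smaller shares each. Trbv13-2 was called in 4.92% of Cd8 class and 13.8% of Cd4 class cells, Trbv1 in 3.03% and 11.7%, and Trbv3 in 2.56% and 9.54%. The lowest ratios were those of Trbv23 (0.162), Trbv5 (0.174), Trbv20 (0.205) and Trbv1 (0.259), followed by Trbv26 (0.266), Trbv3 (0.268), Trbv15 (0.327), Trbv13-2 (0.358), Trbv31 (0.397) and Trbv2 (0.454). All but Trbv23 and Trbv5 were lower in the Cd8 class in all 4 numbers. Trbv31, which lies downstream of Trbc2 at 41557693 to 41558371 and joins by inversion, was thus among them with 2.13% and 5.36%. Trbv19 and Trbv16 differed by less than 1.5 times, with 9.80% and 7.90% for Trbv19 and 6.63% and 6.55% for Trbv16.

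**Figure D2:**
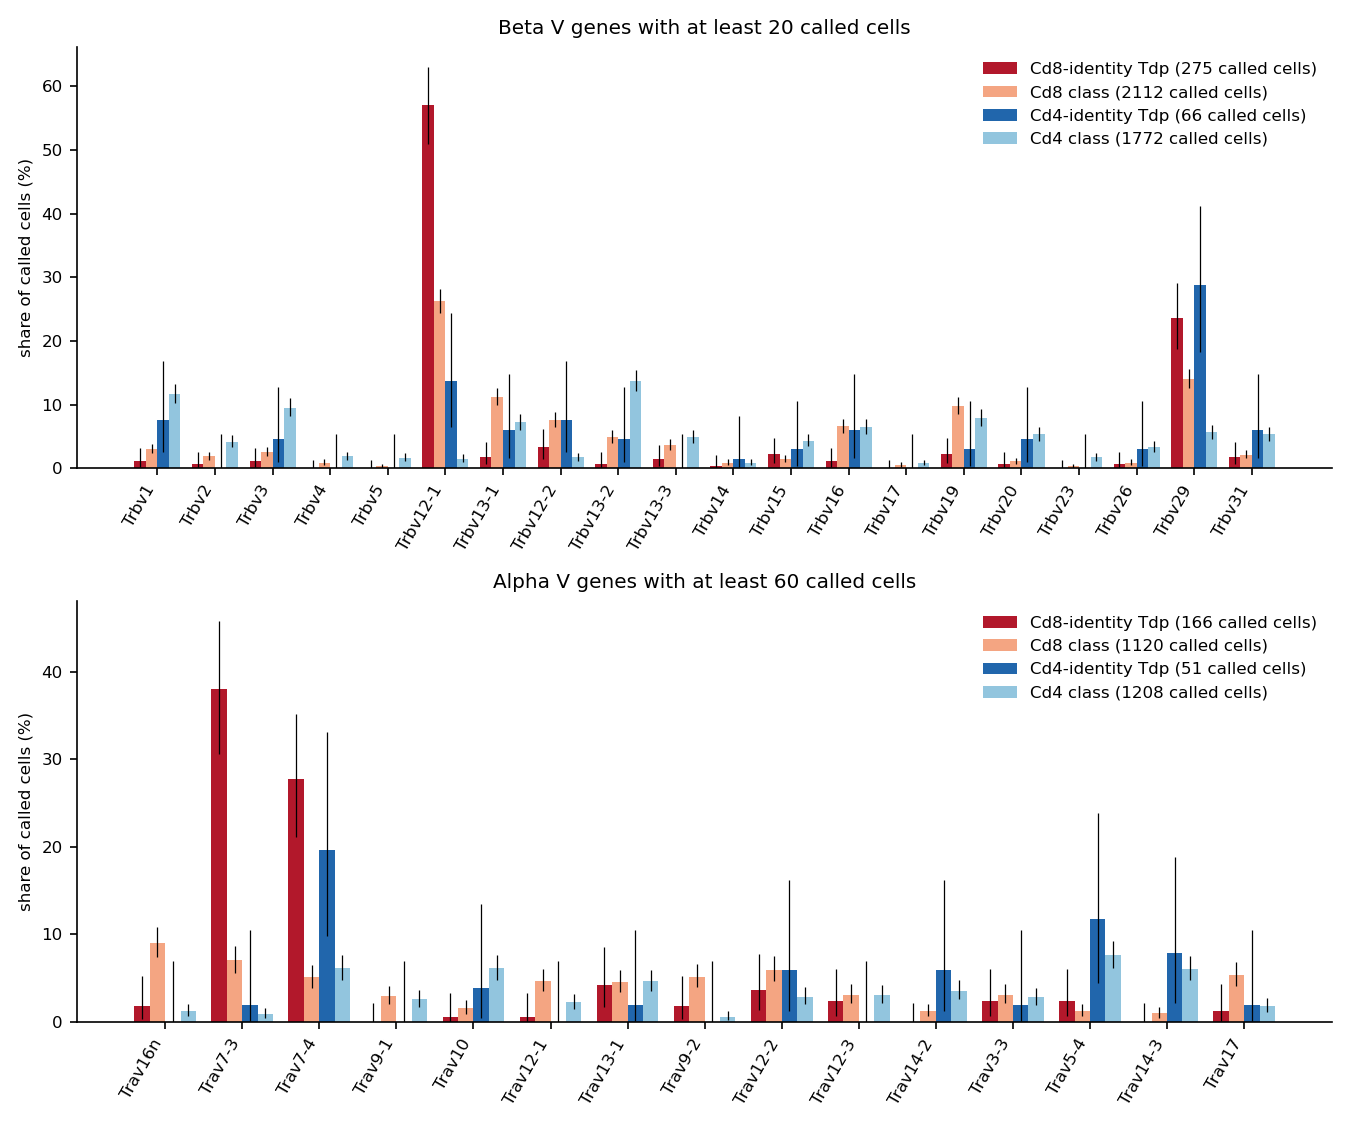
Share of called cells (y axis, percent) by V segment in chromosomal order, for 20 beta segments (top) and the 15 alpha segments with at least 60 called cells (bottom), in the 4 classes, with exact 95% binomial intervals as lines. Trbv12-1 holds 57.1% of Cd8-identity Tdp cells and 26.2% of the Cd8 class, and Trav7-3 and Trav7-4 hold 38.0% and 27.7% of Cd8-identity Tdp cells.

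Alpha usage was spread over many more segments, and it too differed between Cd8 and Cd4 cells. A Trav segment was called in 53.0% of Cd8-identity Tdp cells (166 cells), 41.8% of the Cd8 class (1120), 54.8% of Cd4-identity Tdp cells (51) and 48.8% of the Cd4 class (1208), and in 0 of the 87 myeloid-list cells, which allows a share of up to 4.15% by the exact interval. The effective number of segments was 4.38, 26.3, 10.9 and 29.9 in these groups. Alpha transcripts are the rarer, so the alpha calls miss more cells than the beta calls.

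Between the single classes 36 Trav segments had at least 20 called cells, of which 11 (30.6%) were used at least 1.5 times more by the Cd8 class and 14 (38.9%) less. Trav16n led in the Cd8 class, with 9.02% of called cells and 1.24% in the Cd4 class, higher in all 4 numbers. Next to it were Trav7-3 (7.05% and 0.911%), Trav9-2 (5.18% and 0.579%), Trav17 (5.36% and 1.82%), Trav13n-4 (1.52% and 0.248%), Trav8n-2 (1.79% and 0.662%), Trav14-1 (3.48% and 1.32%) and Trav16 (2.68% and 1.24%). Trav12-1 and Trav12-2 had ratios of 2.08 and 2.06. The Cd4 class led for Trav5-4, with 1.25% of Cd8 class and 7.62% of Cd4 class cells, and for Trav10 (1.61% and 6.13%), Trav14-3 (0.982% and 6.04%), Trav4-3 (0.536% and 3.64%), Trav14n-3 (0.536% and 3.31%) and Trav14-2 (1.25% and 3.56%), all 6 in all 4 numbers. Trav14d-3-dv8 (0.454 times), Trav13-2 (0.462), Trav6-7-dv9 (0.470) and Trav9-4 (0.506) were also lower in the Cd8 class. Trav7-4 differed by less than 1.5 times, with 5.09% and 6.13%.

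Trav1, the segment of the invariant alpha chain of MAIT cells, was called in 3.01% of Cd8-identity Tdp cells (5 cells), 1.70% of the Cd8 class (19 cells) and 0.911% of the Cd4 class (11 cells), low shares on few cells. Trav11, used by invariant NKT cells, is not among the 112 rows. Zbtb16, a factor of these innate-like T cells, had a UMI in 12 of all 5564 cells, 1 of them a myeloid-list cell.

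The Trav locus of this reference holds an internal duplication, whose copies carry a d or an n in their names. The 26 copies with these letters took 5.42% of called Cd8-identity Tdp cells, 22% of the Cd8 class, 1.96% of Cd4-identity Tdp cells and 15.1% of the Cd4 class. Trav16n alone made up much of this in the Cd8 class. The 37 segments between the last n copy and Trdv took 90.4%, 72.7%, 98.0% and 78.9% in the same order. The copies are nearly identical to each other, so which copy a cell used is uncertain from these counts.

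The Cd8-identity Tdp cells used a narrow set of segments within the Cd8 repertoire. Trbv12-1 and Trbv29 together took most of their beta calls, and Trav7-3 and Trav7-4 most of their alpha calls. Of 16 Trbv segments with at least 20 called cells, 3 (18.8%) were at least 1.5 times higher than in the Cd8 class and 10 (62.5%) lower. The large shares of Trbv12-1 and Trbv29 lower those of the other segments, so the count of lower segments is not a separate result. Trbv12-1 was called in 57.1% of Cd8-identity Tdp cells (157 cells, 51.0% to 63.0%) and 26.2% of the Cd8 class. By number its share was 58.5%, 45.9%, 40.6% and 72.1% in Cd8-identity Tdp cells against 22.7%, 23.3%, 20.8% and 41.0% in the Cd8 class, about 2 times higher within each number. Trbv29 had 23.6% (65 cells) and 14.1%. Trbv13-2 (0.727% and 4.92%), Trbv13-1 (1.82% and 11.2%), Trbv16 (1.09% and 6.63%) and Trbv19 (2.18% and 9.80%) were the furthest lower, all in all 4 numbers. The other 6 were Trbv1 (0.360 times), Trbv2 (0.384), Trbv13-3 (0.399), Trbv14 (0.404), Trbv3 (0.427) and Trbv12-2 (0.432), and the third higher segment was Trbv15, on 6 Tdp cells.

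Among 15 Trav segments, 3 (20%) were higher in Cd8-identity Tdp cells and 9 (60%) lower. Here too the large shares of Trav7-3 and Trav7-4 lower the others, so the lower count is not a separate result. Trav7-3 was called in 38.0% of Cd8-identity Tdp cells (63 cells, 30.5% to 45.8%) and 7.05% of the Cd8 class, and Trav7-4 in 27.7% (46 cells, 21.1% to 35.2%) and 5.09%. These are ratios of 5.38 and 5.44, both higher in all 4 numbers. Trav16n, the leading segment of the Cd8 class, had 1.81% and 9.02%, and Trav12-1 0.602% and 4.64%. Trav14-1 (0.173 times), Trav16 and Trav17 (0.225 each), Trav9-2 (0.349) and Trav12-2 (0.604) were also lower, and Trav9-1 and Trav8n-2 had 0 Tdp cells, with 33 and 20 cells in the Cd8 class. The Tdp shares of these segments rest on 6 cells or fewer each.

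Cd4-identity Tdp cells were few, and they used Trbv29 and Trav7-4 more than either single class did, mostly through hashtag number 2. In that number Trbv29 took 53.1% of 32 called Cd4-identity Tdp cells and Trav7-4 33.3% of 24. Other segments led in each of the other numbers. Of 18 Trbv segments 3 (16.7%) were at least 1.5 times higher than in the Cd4 class and 9 (50%) lower. The 3 were Trbv29 (28.8%, 19 cells, and 5.64%), Trbv12-1 (13.6%, 9 cells, and 1.52%) and Trbv12-2 (7.58%, 5 cells, and 1.69%), which are also the 3 segments with the highest ratios of the Cd8 over the Cd4 class. Trbv2, Trbv4, Trbv5, Trbv13-3 and Trbv23 had 0 of the 66 called Tdp cells, which allows up to 5.44% each by the exact interval. Of 20 Trav segments 7 (35.0%) were higher and 9 (45%) lower. Trav7-4 had 19.6% (10 cells) and 6.13%, Trav13-2 11.8% (6 cells) and 2.32%, and Trav5-4 11.8% (6 cells) and 7.62%. Between the Tdp groups, 2 segments of each family had at least 20 called cells. Trbv29 differed by less than 1.5 times, with 23.6% of Cd8-identity and 28.8% of Cd4-identity Tdp cells, and so did Trav7-4 with 27.7% and 19.6%, whereas Trbv12-1 (57.1% and 13.6%) and Trav7-3 (38.0% and 1.96%) differed by more.

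Within the Cd4 class, cells with a Foxp3 UMI used beta segments more evenly than cells without one. The effective number of Trbv segments was 15 in 356 called cells with Foxp3 and 12.4 in 1416 without. Of 18 Trbv segments 4 (22.2%) were at least 1.5 times higher in cells with Foxp3 and 5 (27.8%) lower. The 4 were Trbv12-2 (5.34% and 0.777%), Trbv12-1 (4.21% and 0.847%), Trbv15 (7.87% and 3.46%) and Trbv13-3 (8.15% and 4.03%), each higher in all 4 numbers. Trbv13-2, the leading segment of the class, had 8.15% and 15.2%, and Trbv23 had 0 of 356 cells, which allows up to 1.03% by the exact interval, against 31 of 1416 cells. Of 19 Trav segments 3 (15.8%) were higher, Trav13-2 (5.96% and 1.19%), Trav7-5 (4.91% and 1.95%) and Trav6-7-dv9 (5.26% and 2.60%), and 8 (42.1%) lower, among them Trav5-4 (3.16% and 8.99%) and Trav13-1 (1.75% and 5.53%).

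Taken by combination, a pair of V segments for each cell, the narrow usage of Cd8-identity Tdp cells came down mostly to 2 pairs. Both calls were made in 2073 cells, with 522 different combinations. A combination is coarser than a clonotype, since it leaves out the J segments and the junction. In Cd8-identity Tdp cells Trav7-3 with Trbv12-1 was found in 60 of 145 cells (41.4%, 33.3% to 49.8%) and Trav7-4 with Trbv29 in 41 (28.3%, 21.1% to 36.3%), and no other in more than 2. In the Cd8 class the leading combinations were Trav7-3 with Trbv12-1 in 70 of 980 cells (7.14%), Trav16n with Trbv13-1 in 61 (6.22%) and Trav17 with Trbv12-1 in 54 (5.51%). In Cd4-identity Tdp cells they were Trav7-4 with Trbv29 in 8 of 39 cells (20.5%) and Trav13-2 with Trbv12-2 in 4, and in the Cd4 class Trav5-4 with Trbv13-2 in 56 of 909 (6.16%) and Trav7-4 with Trbv29 in 45 (4.95%).

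Of the 11 combinations with at least 20 cells, 10 lay mostly within 1 identity. Trav7-3 with Trbv12-1 had 60 Cd8-identity Tdp, 70 Cd8 class, 1 Cd4-identity Tdp and 1 Cd4 class cells. Trav9-2 with Trbv29 had 40 cells and Trav17 with Trbv12-1 had 55, all of Cd8 identity, while Trav5-4 with Trbv13-2 had 5 cells of Cd8 and 58 of Cd4 identity. Trav7-4 with Trbv29 differed from these, with 41 Cd8-identity Tdp, 40 Cd8 class, 8 Cd4-identity Tdp and 45 Cd4 class cells. Its 134 cells made it the most frequent combination of all.

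**Figure D3:**
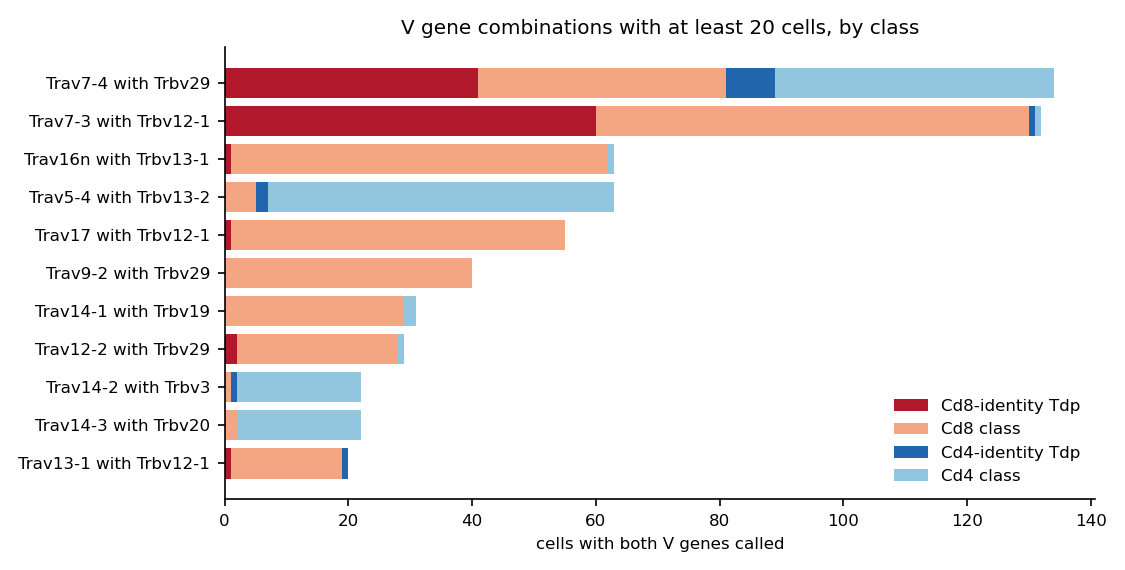
Number of cells (x axis) with each of the 11 V segment combinations of at least 20 cells, stacked by class. The Trav7-4 with Trbv29 bar spans both identities with 41, 40, 8 and 45 cells, and the Trav7-3 with Trbv12-1 bar is made up of 60 Cd8-identity Tdp and 70 Cd8 class cells apart from 2 others.

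The 2 most frequent combinations over all cells were also those in which Tdp cells were common, and this comparison was chosen after the data had been seen. Of Cd8-identity cells with Trav7-4 and Trbv29, 50.6% were Tdp (41 of 81, 39.3% to 61.9%), and of those with Trav7-3 and Trbv12-1, 46.2% were (60 of 130, 37.4% to 55.1%). All other combinations together had 4.81% (44 of 914, 3.52% to 6.41%). Weighted to the hashtag numbers and depth of the cells compared, the other combinations had 8.02% beside Trav7-4 with Trbv29 and 4.13% beside Trav7-3 with Trbv12-1. Within numbers 1 to 4 the share was 20%, 57.8%, 50% and 50% for Trav7-4 with Trbv29, 56.3%, 50%, 42.9% and 42.5% for Trav7-3 with Trbv12-1, and 6.09%, 4.61%, 2.51% and 9.43% for the rest. Both combinations were above the rest in every number, with number 1 of Trav7-4 with Trbv29 resting on 2 of 10 cells.

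Other frequent combinations of the Cd8 class, some with the same beta segments, did not share this. Trav17 with Trbv12-1 had 1 Tdp cell of 55, Trav16n with Trbv13-1 had 1 of 62 Cd8-identity cells, and Trav9-2 with Trbv29 had 0 of 40, which allows a share of up to 8.81% by the exact interval. Because every Tdp cell holds UMIs of Cd4 and Cd8a, cells were also thinned to 2000 UMIs each. A UMI of both genes then remained in 12.3% (10 of 81) of Cd8-identity cells with Trav7-4 and Trbv29, in 22.2% (28 of 126) of those with Trav7-3 and Trbv12-1 and in 1.22% (11 of 903) of the rest. In the 87 myeloid-list cells, at a median of 6924 UMIs, 2.30% had a Cd4 UMI and 1.15% a Cd8a UMI. Among Cd4-identity cells 8 of 53 with Trav7-4 and Trbv29 were Tdp (15.1%), all of them in number 2, against 30 of 893 (3.36%) of the rest.

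**Figure D4:**
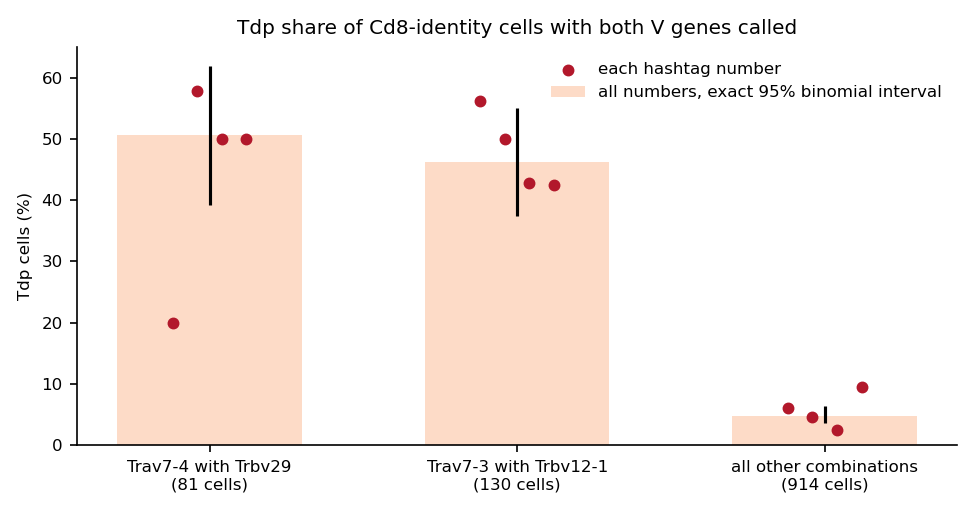
Share of Cd8-identity cells of the Tdp class (y axis, percent) among cells with Trav7-4 and Trbv29, with Trav7-3 and Trbv12-1, and with any other combination, with exact 95% binomial intervals as lines and the 4 hashtag numbers as points. The bars stand at 50.6%, 46.2% and 4.81%, and each point of both named combinations is above the highest point of the rest, 9.43%.

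The 2 combinations differed from each other in depth, cell cycle and co-receptor transcripts. Cells with Trav7-4 and Trbv29 had a median of 6792 UMIs and those with Trav7-3 and Trbv12-1 a median of 3611, where all other combinations had 4272. At least 3 UMIs of the cell cycle markers Mki67, Top2a, Birc5, Ccna2 and Ube2c were found in 44.8% and 10.6% of them, against 16.3% of the rest. By class, and with the other combinations weighted to the same numbers and depth, cells with Trav7-4 and Trbv29 had 51.2% against 24.9% in Cd8-identity Tdp cells, 47.5% against 29.0% in the Cd8 class and 40% against 36.5% in the Cd4 class. The cells with Trav7-3 and Trbv12-1 had 13.3% against 10.8% in Cd8-identity Tdp cells and 7.14% against 5.13% in the Cd8 class. The difference at equal depth was thus found in the Cd8-identity groups and was small in the Cd4 class. Cd8b1, the gene of the CD8 beta chain, had a UMI in 55.2% of cells with Trav7-4 and Trbv29 and in 100% of the 132 cells with Trav7-3 and Trbv12-1. Foxp3 had a UMI in 6.72% and 0% of them, with 0 of 132 allowing up to 2.76% by the exact interval, and in 1.15% of myeloid-list cells.

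In cells with Trav7-4 and Trbv29, Cd8b1 was found at about the same share whatever the authors' class. It was seen in 56.1% (23 of 41) of Cd8-identity Tdp, 52.5% (21 of 40) of Cd8 class, 62.5% (5 of 8) of Cd4-identity Tdp and 55.6% (25 of 45) of Cd4 class cells. In cells with combinations other than the 2, the shares were 90.9%, 92%, 56.7% and 11.6% in the same order. The Cd4 class thus stood above its other cells (55.6%, 40.0% to 70.4%, at a median of 6798 UMIs, against 11.6% at a median of 3786 UMIs, and 12.8% when weighted to the same numbers and depth), and the Cd8 class below. Within numbers 1 to 4 it was 50%, 50%, 100% and 60% of 8, 28, 4 and 5 Cd4 class cells, against 9.49%, 10.6%, 17.9% and 16.9% of the others. Myeloid-list cells had a Cd8b1 UMI in 5.75%. The same Cd4 class cells had a Cd4 UMI in 82.2%, and the Cd8 class cells of this combination in 2.50%. Cd8a, unlike Cd8b1, differed between these classes. It had a UMI in 11.1% (5 of 45) of the Cd4 class cells and 50% (20 of 40) of the Cd8 class cells of this combination. All Tdp cells hold a Cd8a UMI. The labels do not say how the authors called the identity or the class, and the part of those calls in these shares was not tested.

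The same combination came with a second alpha segment. At least 2 UMIs of both Trav5-4 and Trav7-4 were found in 68 cells, 23 Cd8-identity Tdp, 17 Cd8 class, 8 Cd4-identity Tdp and 20 Cd4 class, with 168 UMIs of Trav5-4 and 399 of Trav7-4 in all. Of the 66 of these with a beta call, all 66 were called for Trbv29 (exact interval 94.6% to 100%). They came from all 4 numbers, with 11, 38, 6 and 13 cells. Of the 134 cells called for Trav7-4 and Trbv29, 43 (32.1%) held a second Trav segment and 7 (5.22%) a second Trbv segment. Of the 132 cells with Trav7-3 and Trbv12-1, 0 held a second Trav segment, but many could not by the rule of the call. A second segment at 2 UMIs needs at least 4 UMIs of the called one. Cd8 class cells called for Trav7-3 had a median of 2 UMIs of it, and those called for Trav7-4 a median of 4. The 2 shares are therefore not comparable.

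A few other pairs of alpha segments kept company with a single beta segment. Trav12-1 with Trav16n occurred in 24 cells, all of the Cd8 class, and all 23 with a beta call had Trbv13-1. Trav13-4-dv7 with Trav6-7-dv9 occurred in 16 Cd8 class cells, 12 of 13 with Trbv12-1, and Trav1 with Trav7-1 in 12 cells, 11 of 12 with Trbv20. Trav3-3 with Trav9-4, in 16 cells, had no such partner, the most frequent being Trbv13-1 in 3 of 13. The 5 most frequent pairs of beta segments had few alpha calls. The first, Trbv13-2 with Trbv19, occurred in 77 cells, of which 14 had an alpha call, and no alpha segment was called in more than 1 of them. Trbv13-2 with Trbv13-3 had Trav13-1 in 4 of 19 alpha calls, Trbv12-2 with Trbv13-2 had Trav13-2 in 4 of 21, Trbv13-2 with Trbv16 had at most 2 of 17 alike, and Trbv1 with Trbv13-1 had Trav9-1 in 3 of 5.

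Cells with 2 V segments of 1 family were counted where each had at least 2 UMIs, among cells with at least 4 UMIs of the family. Overall 17.3% (668 of 3868) of cells had 2 or more Trbv segments and 29.2% (514 of 1761) had 2 or more Trav segments. Both kinds were deeper cells, with a median of 6014 UMIs in cells with 2 Trbv segments against 4014 in those without. A second alpha transcript occurs in normal T cells, a second beta transcript less often, and a droplet with 2 cells gives both. The second segment held a median of 28.6% of the Trbv UMIs and 33.3% of the Trav UMIs in such cells. Segments of 1 subfamily, which may share reads, made up 10.0% (67 of 668) of the Trbv pairs and 4.47% (23 of 514) of the Trav pairs.

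For Trbv, Cd4-identity Tdp cells stood apart. Their share was 47.4% (36 of 76, 35.8% to 59.2%), against 15.7% (230 of 1462) in the Cd4 class. By number 1 to 4 it was 44.4%, 31.3%, 87.5% and 61.1% of only 18, 32, 8 and 18 cells. The Cd4 class had 17.6%, 11.4%, 13.4% and 19.3%. In cells thinned to 2000 UMIs the Cd4-identity Tdp share was 30.6% (15 of 49) against 10.7% (91 of 851) in the Cd4 class. Cd8-identity Tdp cells had 20.5% (60 of 292) against 16.8% (342 of 2038) in the Cd8 class, and 9.90% against 9.11% after thinning. By number the Cd8-identity Tdp share was 30.0%, 13.2%, 44.7% and 15.7%, against 17.3%, 13.9%, 20.1% and 15.2% in the Cd8 class, so that number 2 was not higher and number 3 stood out. Cd8b1 had a UMI in 83.3% (30 of 36) of Cd4-identity Tdp cells with 2 Trbv segments and 50% (20 of 40) of those with fewer. Their median depths were 8246 and 4575 UMIs in the same order. Whether the cells with 2 Trbv segments are doublets was not tested.

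For Trav, the share was 39.8% (45 of 113) in Cd8-identity Tdp cells, 30.5% (225 of 738) in Cd8 class cells, 44.2% (23 of 52) in Cd4-identity Tdp cells and 25.8% (221 of 858) in the Cd4 class. Thinned to 2000 UMIs, few Tdp cells remained, and the shares were 20% (4 of 20), 18.4% (32 of 174), 20% (2 of 10) and 20.2% (65 of 321). The differences seen at full depth were not seen at equal depth, but the thinned values cannot decide this. Their intervals were 5.73% to 43.7% in Cd8-identity Tdp and 2.52% to 55.6% in Cd4-identity Tdp cells, and hold the full-depth shares. The pair of Trav5-4 and Trav7-4 made up 23 of the 45 cells with 2 Trav segments among Cd8-identity Tdp cells, 17 of 225 in the Cd8 class, 8 of 23 among Cd4-identity Tdp cells and 20 of 221 in the Cd4 class. Cells with 2 Trbv segments had 2 Trav segments in 42.7% (111 of 260), against 28.2% (315 of 1118) of cells with fewer.

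**Figure D5:**
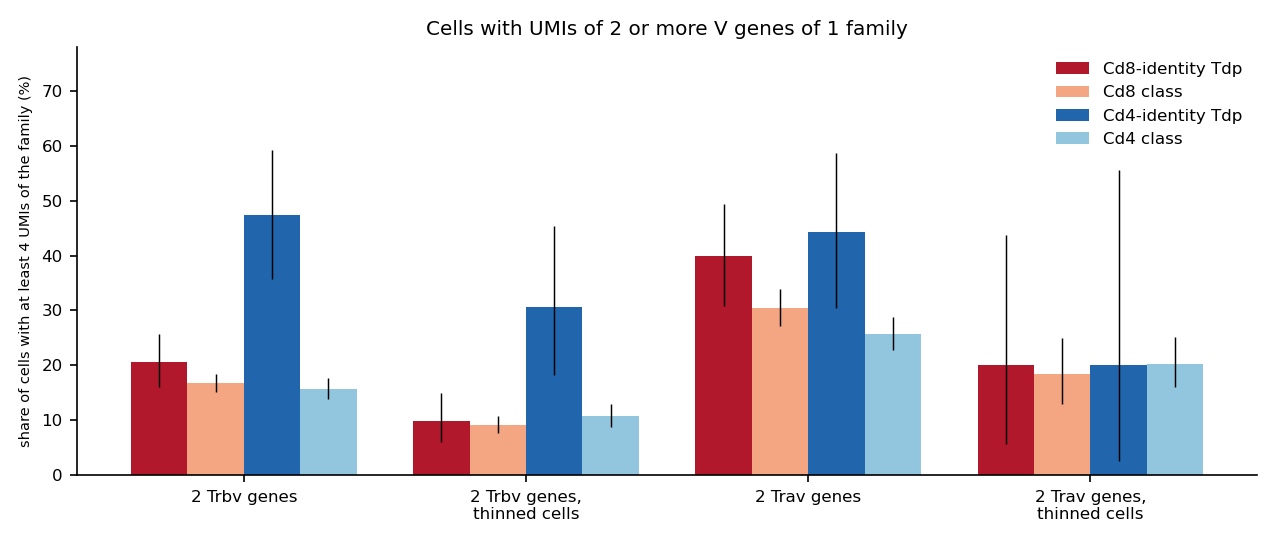
Share of cells in which 2 or more V segments had at least 2 UMIs apiece (y axis, percent of cells with at least 4 UMIs of the family) for Trbv and Trav in the 4 classes, at full depth and in cells thinned to 2000 UMIs, with exact 95% binomial intervals as lines. Cd4-identity Tdp cells stand at 47.4% for Trbv and 30.6% after thinning, and the 4 classes lie between 18.4% and 20.2% for Trav after thinning.

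Gamma and delta chain transcripts were present at low levels, those of Trgv2 mostly in cells with a Trbv call. Trgv2 was the main one, with 790 of the 915 gamma V UMIs. It reached 55.3 CPM in Cd8-identity Tdp cells, 40.0 in Cd8 class cells, 33.2 in Cd4-identity Tdp cells and 11.8 in the Cd4 class. The Cd8 class was thus at 3.4 times the Cd4 class, and at 4.23, 1.69, 3.12 and 3.25 times by number. For Cd8-identity Tdp over the Cd8 class the ratio was 1.38, but it was 2.93 in number 2 and 0, 1.01 and 0.803 in numbers 1, 3 and 4, so it was above 1.5 in number 2 only. At least 2 Trgv2 UMIs were found in 173 cells, 154 of them with a Trbv call, and in 0 of the 87 myeloid-list cells. By class these were 6.71%, 4.51%, 5.38% and 1.05% of Cd8-identity Tdp, Cd8 class, Cd4-identity Tdp and Cd4 class cells. Among Cd4 class cells with a Foxp3 UMI there were 0 of 555, which allows up to 0.541%.

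The gamma C genes Tcrg-C2 and Tcrg-C1 differed between the identities in opposite directions. Tcrg-C2, at 19305060 to 19307551 on chromosome 13, had 15.4 CPM in Cd8-identity Tdp cells, 9.98 in Cd8 class cells, 3.49 in Cd4-identity Tdp cells and 3.18 in the Cd4 class, and a UMI in 43.9% of the 173 Trgv2 cells. Tcrg-C4 had 1.60, 2.29, 0 and 1.31 CPM. Tcrg-C1 ran the other way, with 1.06, 0.222, 5.24 and 9.44 CPM, that is 2, 3, 3 and 101 UMIs. The Cd8 class had 0.0235 times the Tcrg-C1 level of the Cd4 class (95% interval 0.00477 to 0.0707, from 3 and 101 UMIs). The 58 cells with a Tcrg-C1 UMI, 52 of them of the Cd4 class, had a UMI of Serpinb1a in 46.6% and of Il17re in 22.4%, against 9.88% and 3.95% of all cells and 3.45% and 0% of myeloid-list cells. All cells include both identities, so class makeup enters this comparison, and its part was not tested. The 58 cells also had a Trac UMI in 72.4% and a Cd4 UMI in 70.7%, at a median of 3610 UMIs. The other gamma V genes with at least 20 UMIs were Tcrg-V1 (39 UMIs, 34 of them in the Cd8 class), Tcrg-V6 (35, of which 27 in the Cd4 class) and Tcrg-V4 (27, of which 23 in the Cd4 class).

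Delta transcripts were rarer. Trdv segments summed to 1.06 CPM in Cd8-identity Tdp cells, 3.62 in Cd8 class cells, 5.24 in Cd4-identity Tdp cells and 7.85 in the Cd4 class, on 2, 49, 3 and 84 UMIs. Trdv2-2 had 80 UMIs and Trdv1 had 40, and the Cd8 class was at 0.302 times the Cd4 class for Trdv2-2. Trdc had 0.532, 2.96, 3.49 and 3.74 CPM on 1, 40, 2 and 40 UMIs. Its 45 cells were deep, with a median of 7089 UMIs, and had a UMI of Trac in 75.6%, of the innate signalling adaptor Tyrobp in 31.1% and of the NK receptor gene Ncr1 in 22.2%, against 7.28% and 1.04% of all cells for the last 2. Myeloid-list cells had a Tyrobp UMI in 97.7% and an Ncr1 UMI in 0%. No cell had at least 2 delta and at least 2 gamma UMIs with at most 1 Trav or Trbv UMI, which allows up to 0.0539% of the 5564 cells.

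Germline V and C genes can be transcribed without rearrangement, as in NK cells. In 15 cells with at least 3 UMIs of NK receptor genes and no CD3 UMI, all of the Cd8 class, 60% had a Trdv UMI, 40.0% a Trbc UMI and 0% a Trbv UMI, at a median of 2826 UMIs. No receptor UMI at all was found in 1 Cd8-identity Tdp cell, 142 Cd8 class cells, 1 Cd4-identity Tdp cell and 23 Cd4 class cells, and 72 of these 167 were among the 87 myeloid-list cells.

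Genes that build the receptor complex, carry its signal or recombine its segments are given beside the receptor genes. Of a list of 22, 18 had at least 20 UMIs in each comparison, and the other 4 did not. None was past 1.5 for Cd8-identity Tdp over the Cd8 class, where 5.12% and 11.9% of all measured genes were higher and lower. The same held for Cd4-identity Tdp over the Cd4 class, where 8.99% and 17.7% were. A count of 0 of 18 is below these shares, but the listed genes held many UMIs. The fewest were those of Plcg1, with 119 in Cd8-identity Tdp and 40 in Cd4-identity Tdp cells. Whether the list differs from other genes of like level was not tested. In these comparisons the highest ratios were those of Cd247, the CD3 zeta chain (1.45), the adaptor Lat (1.32) and Tespa1 (1.31) for the first, and of the kinase Fyn (1.35), Cd247 (1.22) and Tespa1 (1.15) for the second. The lowest were those of Cd5, a damper of receptor signals (0.822 and 0.673), and of the inhibitory kinase Csk (0.924 and 0.889), followed by Fyn (1.05) in the first and the kinase Zap70 (0.981) in the second. Cd5 alone was past 1.5, lower in Cd8-identity than in Cd4-identity Tdp cells (0.500) and lower in the Cd8 class than in the Cd4 class (0.410). Between the Tdp groups Grap2 (1.41), Fyn (1.15) and Ptprc (1.14) were highest and Tespa1 (0.816) and Cd28 (0.835) lowest after Cd5. Between the single classes Fyn (1.48), Grap2 (1.13) and Cd3d (1.10) were highest and Tespa1 (0.715) and Lat (0.741) lowest after Cd5. The median log2 ratio of the list was 0.22, 0.08, 0.03 and -0.07 in the 4 comparisons, beside 0.02, -0.03, 0.02 and -0.02 over all measured genes.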

How the data were processed

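A 5′ droplet library of T cells from the tumors of 10 pooled mice was measured. The authors deposited a table of UMI counts per gene and cell, whole numbers with no normalization, with a hashtag number, identity and class for each cell. The submitters' processing notes name Cell Ranger 3.1.0, Seurat 3.2.3 and mm10, with no role or order, and the labels do not give the cell filters behind the deposited counts. The table holds 5564 cells, 14811 genes and 26763131 UMIs, from 501 to 23946 UMIs per cell with a median of 3869, and no barcode occurs more than once (0 duplicates). No cell was removed and no doublet caller was run.

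Receptor genes were taken by name, and the members and lists were chosen with earlier results of these data known. Counts were summed per class and expressed as CPM over all genes other than 112 receptor and 5 immunoglobulin genes. V segments were called in a cell at 2 UMIs or more and at least 2 times the next segment. To set depth equal, 2000 UMIs were drawn from each cell that had as many, 5143 cells (309, 2500, 89 and 2245 of Cd8-identity Tdp, Cd8 class, Cd4-identity Tdp and Cd4 class cells). Other cell types were judged by marker lists. With 1 library there was no test, and differences were described by a ratio of 1.5 with 20 UMIs or 20 called cells. Ratios within a hashtag number were taken only where both classes had 20 cells there. Named were the constant genes, up to 10 V segments of each family past that ratio in each direction, the most called segments, Trav1 and Trav11, gamma and delta rows with 20 UMIs, and the 3 highest and lowest pathway genes. UMIs of a 5′ library stand for molecules whatever the length of the gene, and near-identical segments can share reads. Alternatives covered the CPM denominator, TMM scaling, UMI minimums, subfamilies, depth, cells of other types and each hashtag number left out. The scripts were tested on simulated data. Python 3.11.15, numpy 2.4.6, scipy 1.17.1, pandas 2.3.3, matplotlib 3.10.9, R 4.3.3 and edgeR 4.0.16 (TMM only) were used, and coordinates are RefSeq's for GRCm38.p6.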

Additional observations from a re-analysis of the deposited data

How the results depend on the processing

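Of 189 alternative values for 19 results, 166 stayed within the counting interval or within 1.5 times the count, and 23 moved beyond. Differences between shares had the other sign in 7, and the causes were not tested unless given here. The receptor CPM ratio of Cd8-identity Tdp cells to the Cd8 class, 1.16, was 1.12 with TMM scaling, 1.08 without cells of other types and 1.24 against Cd8 class cells weighted to the Tdp cells' depth and numbers, and 1.13 to 1.20 with each hashtag number left out. That of Cd4-identity Tdp cells to the Cd4 class, 1.20, was 1.14 to 1.25 with a number left out, and that between Tdp groups, 0.983, was 0.943 to 1.01. The Cd8 to Cd4 class ratio, 1.01, was 1.03 with TMM scaling, 1.03 as the mean over cells, 1.06 without cells of other types and 0.979 to 1.02 with a number left out. The difference in the share of cells with 2 Trbv segments was 3.77 percentage points for Cd8-identity Tdp minus Cd8 class (-1.43 at 1 UMI of each, 1.91 to 6.70 with a number left out), 31.6 for Cd4-identity Tdp minus Cd4 class (19.9 thinned, 26.7 to 41.6), -26.8 between Tdp groups (-34.4 to -19.7) and 1.05 for Cd8 minus Cd4 class (-1.59 thinned, -0.916 to 2.64). For 2 Trav segments the same differences were 9.34 (-4.40 without Trav5-4 and Trav7-4 cells, a drop fixed by construction since each cell left out has 2 Trav segments; 7.85 to 12.7), 18.5 (-0.249 thinned, 15.3 to 20.1), -4.41 (-22.3 at 1 UMI and 7.88 at 3 UMIs of each, -6.85 to -2.24) and 4.73 (-1.86 thinned, 4.17 to 5.43). Between the Cd8 and Cd4 classes, 4 higher Trbv segments became 2 as subfamilies (3 to 4 with a number left out), 12 lower stayed at 9 to 12, 11 higher Trav segments became 5 as subfamilies and 7 at 50 called cells (9 to 11), and 14 lower became 5 and 6 (11 to 13). The excess of Tdp cells, chosen after seeing the data like its alternatives, was 41.3 points for Trav7-3 with Trbv12-1 (53.2 at calls of 3 UMIs, 39.9 to 47.0 with a number left out) and 45.8 for Trav7-4 with Trbv29 (36.8 to 50.3), and the Cd8b1 excess of Cd4 class cells with Trav7-4 and Trbv29 was 44.0 (40.2 to 52.7). No paired analysis was possible because all cells come from 1 library and the hashtag numbers are parts of 1 pool. Depth limits the alpha calls and every Cd4-identity Tdp value, which rests on 93 cells.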
